A study of Mus musculus with 20 samples.

Results

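The comparison described here is that of MOV mimic with MOV control, the 2 groups of overloaded plantaris muscle that differed in the virus injected. It takes 10 of the 20 libraries of the series, 5 per group, chosen by their labels alone. RNA-seq was done on whole plantaris from male C57BL/6J mice aged 5 months, 10 days after surgery. In mechanical overload (MOV) part of the gastrocnemius and soleus of both legs is cut away, which loads the plantaris, and in sham surgery these muscles are kept. MOV mimic muscles had received a lentivirus that expresses a miR-1 mimic and MOV control muscles one with a scrambled sequence. Both viruses carried a CMV promoter and the reporter TurboGFP. The injection was made at the surgery, and the reporter was seen in a part of the fibres. The study's methods place control virus in the left and mimic virus in the right plantaris of a mouse. The side of the body and the virus cannot be told apart. The question is which genes, pathways and cell types differ when the overloaded muscle receives the mimic.

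miR-1 is an abundant microRNA of striated muscle and acts mainly by lowering the stability and translation of mRNAs that carry its seed match. Muscle fibres normally show little MHC on their surface. Interferon-gamma, made by T cells and NK cells, acts through its receptor and JAK kinases, induces IRF1, and with it the MHC genes, the immunoproteasome, and guanylate-binding proteins (GBPs) and immunity-related GTPases (IRGs) that defend cells against intracellular microbes. Overloaded muscle is also known to attract leukocytes and to activate satellite cells, which form regenerating fibres with embryonic myosin.

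Total counts were between 15301046 and 20228688 in MOV control and between 12036360 and 17877583 in MOV mimic. The muscle label fitted the markers, since the 12 fast fibre genes summed to between 78360 and 173600 CPM (counts scaled to library size after TMM normalization) in the 10 libraries. Number 5 of MOV mimic stood apart, with the highest summed level of the mitochondrial genome (152200 CPM) and the lowest of regenerating fibre genes (185.7 CPM). Number 4 of MOV mimic had the lowest depth and 15561 genes with at least 1 count, against 18768 to 20702 in the other 9 libraries, and the part of this in the results below was not tested. Libraries of equal number were read as both legs of 1 mouse, which the labels do not state. Levels in MOV control and MOV mimic muscles are given below for numbers 1 to 5 in that order, and log2 fold changes are MOV mimic relative to MOV control with their standard error. No gene passed edgeR's quasi-likelihood test at an adjusted p of 0.05, neither without the pairing (0 of 15220 genes, 0%) nor with the replicate number as a block (0%). The unadjusted p was under 0.05 for 641 genes without the block and for 1100 genes with it. DESeq2 with the same block called 127 genes, of which 84 were higher (0.552% of the genes tested) and 43 lower (0.283%) in MOV mimic, and limma voom with the block called 67. DESeq2 without the block called 3. A gene is said below to have risen or fallen only where DESeq2 with the block gave an adjusted p under 0.05, and every such statement rests on the paired reading and on that tool. On simulated counts this fit called more unchanged genes than edgeR or voom. The share of false calls may therefore be larger than its threshold states, and single calls near the threshold are uncertain.

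**Figure D1:**
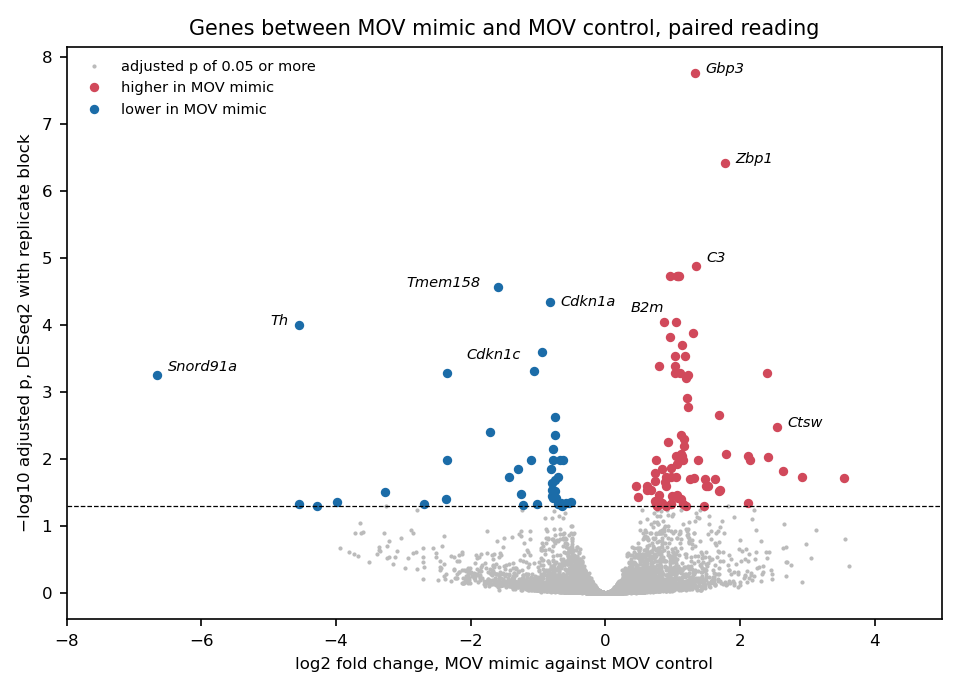
Each point is 1 of 15220 genes, with the log2 fold change of MOV mimic against MOV control on the x axis and −log10 of the adjusted p of DESeq2 with the replicate block on the y axis, and the dashed line at an adjusted p of 0.05. The 84 genes that rose lie right of 0 with Gbp3 at the top, and the 43 genes that fell include cell cycle inhibitors (Cdkn1a, Cdkn1c) and Snord91a at the far left.

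Of the 84 genes that rose, 18 belonged to the MHC genes or their peptide loading machinery and 66 did not. They were higher in all 5 pairs for 67 of the 84, and of the 43 genes that fell 38 were lower in all 5 pairs. Over all genes tested, 4.18% were higher and 4.37% were lower in 5 of 5 pairs, but a fit blocked on the pairs favours genes of 1 direction, so nothing is read from this. The 5 pairs differed in size of effect. The median log2 difference of the 84 genes was 1.10, 1.43, 0.33, 1.60 and 0.73 in pairs 1 to 5, and the smallest difference lay in pair 3 for 50 of them. For the 43 genes that fell the medians were -0.80, -0.92, -0.33, -1.03 and -1.45, with the largest fall in pair 5 for 24 of them. Number 4 gave the largest difference for 45 of the 84 genes. Leaving out a pair gave 43, 25, 326, 54 and 116 calls for pairs 1 to 5, which held 36, 19, 111, 45 and 71 of the 127 genes. The 17 genes called whichever pair was left out were the interferon-inducible or antigen-presenting genes Gbp3, Irgm2, B2m, Tap1, Psmb10, Psme1, H2-T23, H2-Ab1, H2-Eb1 and Cd74, then C3, Fgl2 and Itpr1, and among those that fell Cdkn1a, Cdkn1c, Tmem158 and Atp1b4.

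Of 19 tested effector genes of interferon-gamma 7 rose in MOV mimic and 12 were not called. All 19 had a positive log2 fold change without the block, as had 7496 of the 15220 genes tested. The median was 1.16 without the block against -0.01 over all genes tested. Leaving out 1 pair gave between 2 and 10 called members. The median log2 difference was -0.08 in pair 3 and positive in the other 4 pairs. The unpaired median was 2.21 without number 4 of MOV control, 0.68 without number 4 of MOV mimic and 0.74 without number 2 of MOV mimic. Gbp3, a guanylate-binding protein, was at 21.1, 26.6, 9.71, 64.5 and 8.59 CPM in control and 61.1, 103, 19.6, 136 and 17.4 CPM in mimic muscles. The groups overlapped, yet the order of the numbers was the same in both, from 5 (lowest) through 3, 1 and 2 to 4 (highest), and the mimic leg was higher in each pair, by between 2.01-fold and 3.87-fold (with a prior count of 2). The log2 fold change was 1.33 ± 0.19 in DESeq2 with the block (adjusted p 1.72e-08), 1.33 ± 0.16 in edgeR with the block (adjusted p 0.107) and 1.37 ± 0.62 in edgeR without it. The exact permutation test over the 10 libraries gave p = 0.151.

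Irgm2 and Igtp, a pair of IRG proteins, had a wide range between the numbers in both groups. Irgm2 was at 77.1, 194, 39.7, 683 and 48.9 CPM in control and 193, 781, 63.2, 946 and 99 CPM in mimic muscles. Number 4 was the highest and number 2 the second highest in both groups, which overlapped. It rose by 1.10 ± 0.19 (DESeq2 with the block, adjusted p 1.87e-05), and Igtp rose by 1.10 ± 0.22 (adjusted p 0.000516). Iigp1, another IRG and the most abundant member at a mean of 358 CPM in control and 646 CPM in mimic muscles, was higher in 5 of 5 pairs and did not pass (DESeq2 with the block, adjusted p 0.239). Without the block the log2 fold changes of Irgm2, Igtp and Iigp1 depended on number 4, with 2.21, 2.59 and 2.69 without its control library and 0.44, 0.27 and 0.04 without its mimic library. Gbp2, Gbp4 and Gbp7 rose by 1.13, 1.12 and 1.16 on the log2 scale (adjusted p 0.00439, 0.00852 and 0.00494 in DESeq2 with the block), each in 4 of 5 pairs with pair 3 the exception.

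The promoters of 3 of the called interferon genes and of B2m are shown as examples that hold a motif, and were picked for holding one. Sequences are from RefSeq (GRCm38.p6), each 300 bases on the + strand from 250 bases before the annotated start, and capitals mark matches to TTCNNNGAA, the gamma-activated site (GAS), or GAAANNGAAA, the core of the interferon-stimulated response element (ISRE), on either strand. Gbp3 at chr3:142559794-142560093 (the first of its 2 annotated starts, the other of which held neither motif) held 2 overlapping ISRE matches that began 45 and 39 bases before the start, Irgm2 at chr11:58214727-58215026 a GAS match 75 and an ISRE match 64 bases before it, Igtp at chr11:58199306-58199605 a GAS match 45 and an ISRE match 34 bases before it, and B2m, the light chain of MHC class I, at chr2:122147437-122147736 an ISRE match 139 bases before it.
Gbp3: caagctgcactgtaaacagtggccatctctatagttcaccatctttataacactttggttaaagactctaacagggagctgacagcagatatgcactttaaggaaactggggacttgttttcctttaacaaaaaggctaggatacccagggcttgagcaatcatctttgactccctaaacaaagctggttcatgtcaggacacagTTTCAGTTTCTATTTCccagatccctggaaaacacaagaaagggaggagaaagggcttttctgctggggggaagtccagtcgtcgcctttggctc
Irgm2: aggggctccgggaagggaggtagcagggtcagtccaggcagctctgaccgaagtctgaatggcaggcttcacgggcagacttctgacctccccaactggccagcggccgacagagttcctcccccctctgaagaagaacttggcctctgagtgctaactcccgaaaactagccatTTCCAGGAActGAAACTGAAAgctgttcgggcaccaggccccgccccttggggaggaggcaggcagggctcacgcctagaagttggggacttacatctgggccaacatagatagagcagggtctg
Igtp: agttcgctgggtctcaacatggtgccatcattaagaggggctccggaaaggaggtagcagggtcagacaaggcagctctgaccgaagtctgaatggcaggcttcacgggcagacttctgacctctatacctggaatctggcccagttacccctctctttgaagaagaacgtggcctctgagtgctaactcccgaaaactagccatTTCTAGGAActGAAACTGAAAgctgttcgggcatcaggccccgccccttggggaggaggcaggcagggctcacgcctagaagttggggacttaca
B2m: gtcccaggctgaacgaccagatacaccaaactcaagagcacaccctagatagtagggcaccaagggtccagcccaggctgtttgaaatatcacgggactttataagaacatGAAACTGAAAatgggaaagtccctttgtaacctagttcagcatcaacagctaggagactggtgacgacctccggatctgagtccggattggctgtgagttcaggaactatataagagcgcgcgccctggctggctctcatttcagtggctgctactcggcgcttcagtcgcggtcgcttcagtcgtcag
A RefSeq promoter was found for 55 of the 84 genes that rose and for 29 of the 43 that fell. An ISRE match was present for 13 of the 55 (23.6%) and for 0 of the 29, against 3.78% of the 10705 tested genes with a promoter. A GAS match was present for 10 of the 55 (18.2%) and 2 of the 29 (6.9%), against 8.27%. Tap1, Psmb10, Cd274 and C3, which also rose, held neither in this window.

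**Figure D2:**
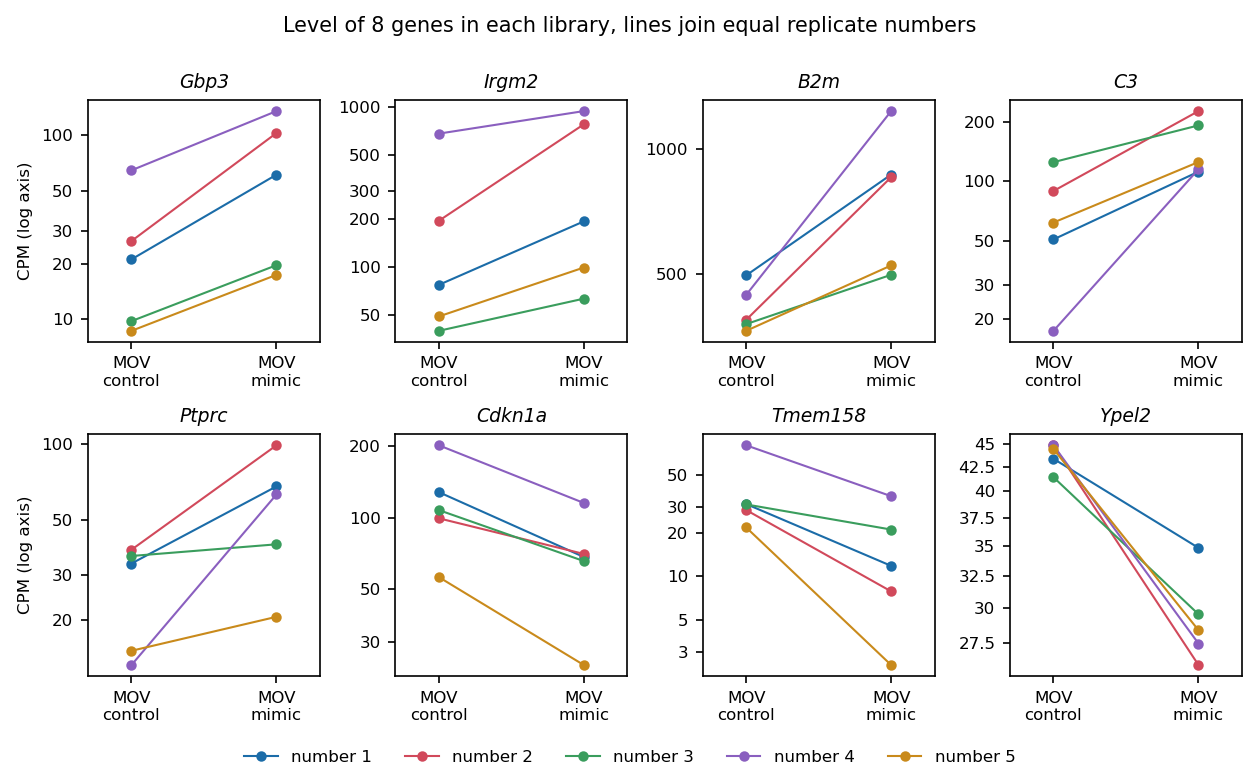
Each panel gives the level of 1 gene in CPM (log axis) in the 5 MOV control and the 5 MOV mimic libraries, with lines joining equal replicate numbers. Gbp3, Irgm2, B2m, C3 and Ptprc were higher and Cdkn1a, Tmem158 and Ypel2 lower in the mimic leg of all 5 pairs, and the groups do not overlap for B2m and Ypel2.

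Upstream of these effectors, 15 of 18 listed ligand, receptor and signalling genes were tested. They did not include Ifng and had a median of 0.47 without the block. The ligand gene Ifng, named after its values were seen, lay under the filter on low counts, with 6, 4, 0, 5 and 1 counts in MOV control and 10, 59, 4, 141 and 0 counts in MOV mimic. Only numbers 2 and 4 of MOV mimic stood clear of the other libraries. Irf1, a transcription factor that interferon-gamma induces, was higher in 5 of 5 pairs without passing (adjusted p 0.0629 in DESeq2 with the block). Of these 15 genes 1 was called.

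Genes known mainly from type I interferon were mostly not called. Without the block all 32 tested members had a positive log2 fold change in edgeR (median 0.82). With it the median was 0.50, and Ifi44, Ifi35 and Oas1a, named after their values were seen, were negative. Of the 32 genes 2 rose, against 0.552% of all genes tested. Without pairs 1 to 5 the calls were 1, 0, 7, 2 and 2. Without number 2 of MOV mimic the median was 0.34. Pair 3 went the other way, with a median of -0.60. Zbp1, a sensor of nucleic acids in Z form that can start necroptosis, was at 5.54, 20.1, 5.02, 17.6 and 0.456 CPM in control and 20.3, 59.9, 8.11, 75.7 and 4.1 CPM in mimic muscles. Numbers 2 and 4 were the highest of each group, and the mimic leg was higher in each pair. Its log2 fold change was 1.78 ± 0.27 (DESeq2 with the block, adjusted p 3.79e-07). Parp14 rose by 0.75 ± 0.18 (adjusted p 0.0103).

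Called genes of antigen presentation were found in both MHC classes. B2m was at 495, 387, 378, 444 and 364 CPM in control and 867, 855, 497, 1234 and 523 CPM in mimic muscles. Every mimic library lay above every control library, which held for 0.335% of all genes tested, and the exact permutation test gave p = 0.00794, the smallest that 5 against 5 libraries allow. Of 15 tested class I and peptide loading genes 9 rose and none fell (median 1.12 without the block, 0.68 without number 4 of MOV mimic), among them the peptide transporter Tap1 by 1.06 ± 0.19 (adjusted p 9.01e-05, DESeq2 with the block) and Nlrc5, the transactivator of class I, by 0.98 ± 0.24 (adjusted p 0.0136). H2-K1, the most abundant, was at a mean of 469 CPM in control and 943 CPM in mimic muscles and was not called (adjusted p 0.475); it was lower in the mimic leg of pair 5. Of 10 class II genes 8 rose (median 1.15). The invariant chain Cd74 was at 334, 381, 395, 239 and 147 CPM in control and 805, 985, 437, 856 and 207 CPM in mimic muscles, and number 5 of MOV mimic fell within the control range. The class II transactivator Ciita rose by 1.00 ± 0.27 (adjusted p 0.036) and the peptide exchange factor H2-DMb1 by 1.30 ± 0.25 (adjusted p 0.000131). H2 genes, and likewise GBPs, IRGs and granzymes, resemble each other closely, and how reads with several alignments were counted is not given in the sources used here, so that the share of each such gene is uncertain. Leaving out 1 pair left between 3 and 12 called class I genes and between 3 and 9 called class II genes.

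The immunoproteasome, which cuts proteins into peptides for class I, had 3 of 4 tested genes called and a median of 1.20 (0.75 without number 4 of MOV mimic). Psme1, a subunit of its activator, was at 64.3, 63, 41.5, 82.1 and 57.3 CPM in control and 139, 124, 56.6, 231 and 95.2 CPM in mimic muscles and rose by 0.96 ± 0.17. The catalytic subunit Psmb10 was at 69.2, 51.1, 29.4, 98.2 and 18.2 CPM in control and 172, 118, 36.6, 311 and 31.8 CPM in mimic muscles and rose by 1.07 ± 0.19 (both adjusted p 1.87e-05 in DESeq2 with the block). Both were higher in the mimic leg of every pair, and pair 3 had the smallest difference. Cd274 (PD-L1), the checkpoint ligand that interferon-gamma induces, was at 8.66, 25.6, 2.54, 49.4 and 2.74 CPM in control and 10.9, 122, 3.52, 121 and 8.19 CPM in mimic muscles. It rose by 1.22 ± 0.26 (adjusted p 0.00121) and was the sole call among 11 costimulation and checkpoint genes.

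Some genes shared by leukocytes were called. In bulk RNA more cells of a type and more RNA per cell cannot be told apart. All 31 tested pan-leukocyte genes had a positive log2 fold change (median 0.75), 6 rose, and 12 were higher in 5 of 5 pairs. Over all genes tested 7496 of 15220 were positive, 0.552% rose and 4.18% were higher in 5 of 5 pairs. Ptprc, which encodes the leukocyte antigen CD45, was at 33.5, 38, 35.8, 13.2 and 15.1 CPM in control and 67.7, 98.7, 39.9, 62.9 and 20.6 CPM in mimic muscles. Numbers 1 to 4 of MOV mimic lay above all control libraries and number 5 did not. It rose by 1.05 ± 0.25 (adjusted p 0.00907, DESeq2 with the block). Ptpn6, the phosphatase SHP-1 that dampens receptor signalling, rose by 1.20 ± 0.25 (adjusted p 0.000614), and Arhgdib, a GDP dissociation inhibitor of blood cells, by 0.93 ± 0.21 (adjusted p 0.00553). The list's summed level lay between 204 and 502 CPM over the control libraries and between 308 and 1078 CPM over the mimic libraries, with ratios of 1.47, 2.15, 1.09, 3.49 and 1.42 in pairs 1 to 5. Without 1 pair the called members numbered between 0 (without pair 2) and 12 (without pair 3).

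**Figure D3:**
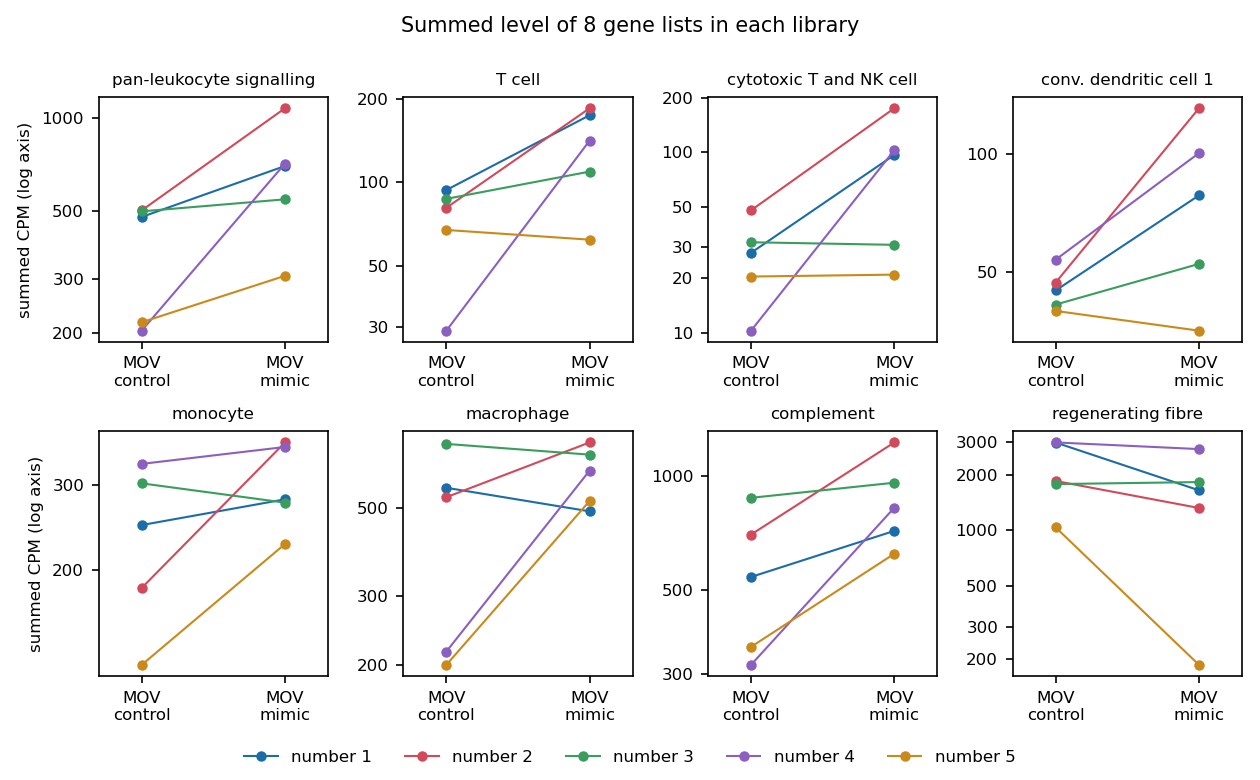
Each panel gives the summed CPM (log axis) of all genes of 1 list in the 10 libraries, with lines joining equal replicate numbers. Pair 4 has the steepest rise for T cell and cytotoxic genes and the lowest control library there, pair 3 is nearly level in several panels, and regenerating fibre genes drop most in pair 5.

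Of 19 T and NK cell effector genes 14 passed the filter on low counts, and 3 of them rose. Members such as Eomes, at 0.467 CPM in control and 2.19 CPM in mimic muscles on average, may have passed through the mimic libraries alone, so nothing is read from the 14 positive signs or their median of 1.54. Gzmb, the protease granzyme B, was at 0.753, 1.45, 2.6, 0.814 and 0.912 CPM in control and 4.84, 7.51, 3.25, 11.2 and 2.43 CPM in mimic muscles, and Gzma, granzyme A, at 1.24, 3.55, 1.02, 1.56 and 0.837 and 6.21, 13.5, 1.96, 9.84 and 1.46 CPM. Both were higher in every pair, most in pair 4. Gzmb rose by 2.12 ± 0.50, Gzma by 1.79 ± 0.42 and the lysosomal protease Ctsw by 2.55 ± 0.57 (adjusted p 0.00907, 0.00852 and 0.00333 in DESeq2 with the block). These levels are low, and the calls were lost when pair 1, 2 or 4 was left out, which left 0 members called. Ncr1, Ifng and 3 further genes of this list did not reach the filter.

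T cell genes showed the same direction without passing. All 22 were positive (median 1.11), against 7496 of the 15220 genes tested, and none was called. The receptor chain gene Trbc2 came closest, at 3.77, 1.78, 1.41, 0.271 and 3.19 CPM in control and 11.7, 10, 5.41, 4.22 and 1.8 CPM in mimic muscles (DESeq2 with the block, adjusted p 0.0501). It was lower in the mimic leg of pair 5 and higher in the other 4 pairs. The list medians were 1.36, 1.19, 0.25, 2.87 and -0.56 in pairs 1 to 5, and its summed level ranged from 29.2 to 93.8 CPM in MOV control and from 62.1 to 185 CPM in MOV mimic. Number 4 of MOV control was the lowest library, and leaving out 1 library at a time gave medians between 0.88 and 1.35. For 6 tested B and plasma cell genes the median was 0.82 (0.53 without number 4 of MOV mimic) with no call, and Ms4a1, which marks B cells, stayed under the filter. The heavy chain Ighm was at a mean of 25.1 CPM in control and 45.4 CPM in mimic muscles and was not called (adjusted p 0.07).

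Antigen-presenting and phagocytic cells gave a mixed picture. Among 9 tested genes of type 1 conventional dendritic cells, which cross-present antigen to CD8 T cells, the median was 1.11, and Clec9a, their receptor for dead cells, rose by 1.63 ± 0.42 (adjusted p 0.0195, DESeq2 with the block) from 1.67, 2.24, 1.35, 2.24 and 0.532 CPM in MOV control to 7.59, 8.62, 2.77, 5.39 and 1.67 CPM in MOV mimic. Number 5 of MOV mimic lay within the control range and number 3 just above it. Of the 9 genes 7 were positive and 2 negative without the block, with Cadm1 at -0.01. Members such as Itgae, at 0.616 CPM in control and 2.53 CPM in mimic muscles on average, may have passed the filter through the mimic libraries alone. Nothing is therefore read from the median of 1.11. Among 10 monocyte genes the median was 1.08 (0.57 and 0.60 without numbers 2 and 4 of MOV mimic), and Ccr2, the receptor that brings monocytes into tissue, was at 29.1, 39.1, 38.9, 8.47 and 18.9 CPM in control and 51.7, 90.6, 48.5, 59 and 28.8 CPM in mimic muscles and rose by 1.12 ± 0.27 (adjusted p 0.0103). Among 17 macrophage genes the median was 0.34, with 0.51, 0.58, 0.11 and 0.14 without numbers 1, 3, 4 and 5 of MOV control, and 1 rose, the complement component C1qc, by 0.74 ± 0.19 (adjusted p 0.0212). The summed macrophage level gave ratios of mimic to control of 0.872, 1.38, 0.939, 2.87 and 2.6 in pairs 1 to 5, against 1.86, 2.29, 1.25, 4.85 and 0.922 for the T cell genes. Pair 4 had the largest ratio in both, and pair 5 the second largest for macrophage and the smallest for T cell genes. The 11 tested genes of other dendritic cells had a median of 0.55 without the block, with 8 positive, 3 negative and none called. Leaving out 1 pair gave between 0 and 3, 0 and 4, and 0 and 5 called genes for the type 1 dendritic cell, monocyte and macrophage lists. Of 10 neutrophil markers 3 passed the filter, and Ly6g had no count. Their median was -0.66, with none called, and leaving out 1 library at a time gave medians from -0.82 to 0.10.

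Some complement and chemokine genes were called. All 16 tested complement genes were positive (median 0.59), 4 rose and 6 were higher in 5 of 5 pairs. Over all genes tested 7496 of 15220 were positive, 0.552% rose and 4.18% were higher in 5 of 5 pairs. Without pairs 1 to 5 the calls were 2, 1, 8, 1 and 2 for complement and 1, 0, 6, 1 and 4 for chemokine genes. C3, the central component on which all complement pathways converge, was at 50.7, 89.2, 125, 17.5 and 61.8 CPM in control and 112, 226, 192, 115 and 125 CPM in mimic muscles. Number 4 had the lowest control value and the widest difference, and number 3 of MOV control lay above the lowest mimic values. It rose by 1.35 ± 0.23 (adjusted p 1.3e-05, DESeq2 with the block). C4b rose by 0.67 ± 0.18 (adjusted p 0.029) and Serping1, the C1 inhibitor, by 0.62 ± 0.16 (adjusted p 0.0255). Of 27 chemokine and receptor genes 23 were positive without the block (median 0.64) and 3 rose, among them Ccr2 and the monocyte attractant Ccl7, the latter by 1.37 ± 0.33 (adjusted p 0.0103). The most abundant, the interferon-induced Cxcl9, was at 17.2, 84.8, 9.26, 66.9 and 6.31 CPM in control and 54.8, 395, 10.2, 266 and 4.24 CPM in mimic muscles and did not pass (adjusted p 0.45). It was high in numbers 2 and 4 of both groups and lower in the mimic leg of pair 5.

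**Figure D4:**
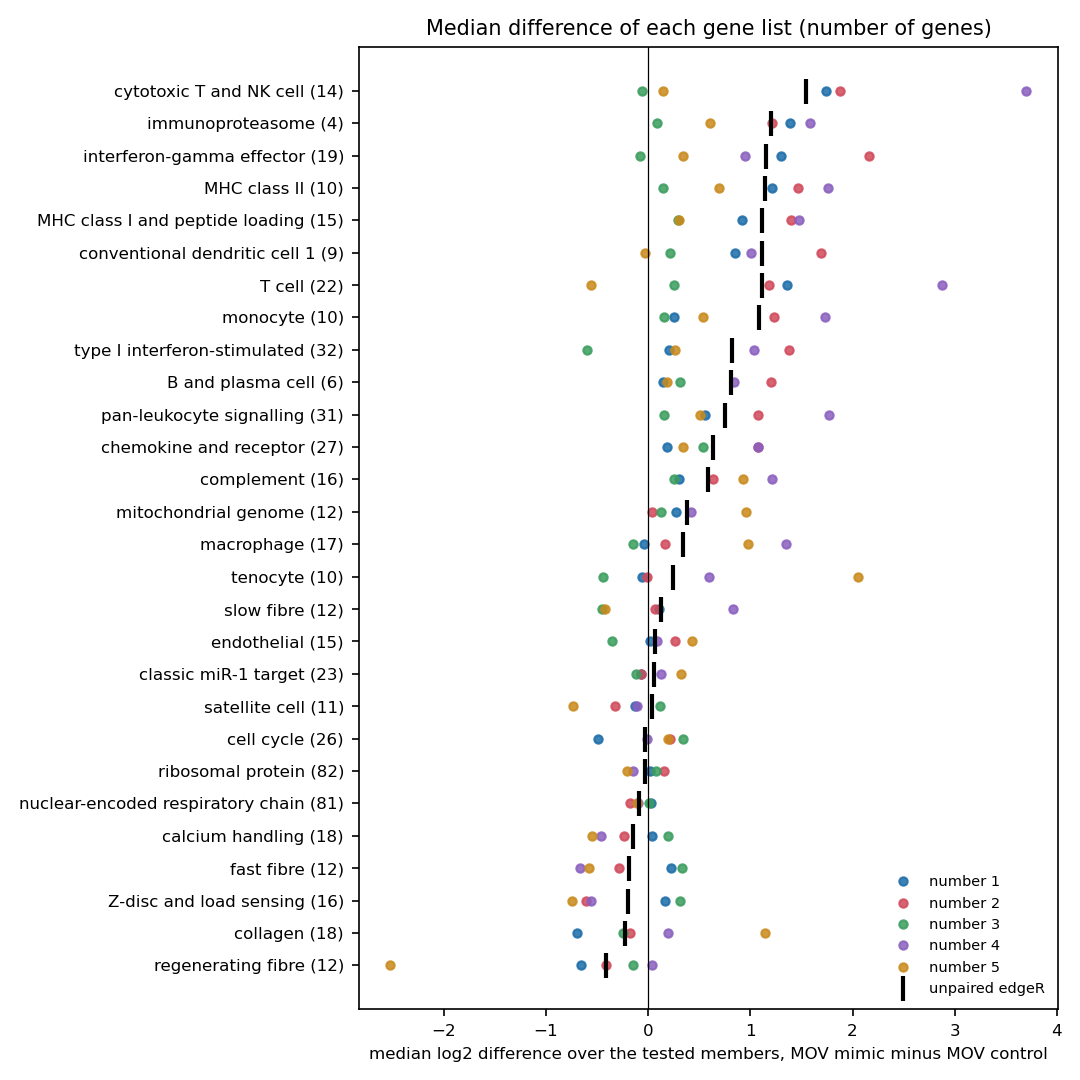
For 28 gene lists (y axis, with the number of genes tested) the points give the median log2 difference of MOV mimic minus MOV control in each of the 5 pairs and the black bars the median of edgeR without the block (x axis). The immune lists shown have bars between 0.34 and 1.54 (the neutrophil list at -0.66 and the mast cell list at 0.25 are not drawn), the mitochondrial genome lies at 0.38 and regenerating fibre at -0.41, and pair 5 stands apart for regenerating fibre at -2.52, tenocyte at 2.05 and collagen at 1.15.

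Several genes that rose had other roles. Itpr1, a calcium release channel of the endoplasmic reticulum, was at 24.7, 33.7, 28, 20.3 and 48.9 CPM in control and 51.2, 56.1, 39.8, 33.3 and 95.9 CPM in mimic muscles. It was up in each pair by between 1.42-fold and 2.07-fold, and rose by 0.80 ± 0.16 (adjusted p 0.000402, DESeq2 with the block). Nos1, neuronal nitric oxide synthase, which the dystrophin complex holds at the membrane, was at 18.2, 20.6, 20.3, 15.9 and 16.3 CPM in control and 37.5, 37.1, 28.5, 19.8 and 73.7 CPM in mimic muscles and rose by 0.97 ± 0.25 (adjusted p 0.0182). It was the only riser among 14 genes of that complex, whose median was -0.21. Selenow, a small selenoprotein abundant in muscle, rose by 0.46 ± 0.12 (adjusted p 0.0255) from a mean of 647 to 894 CPM. Fgl2, a secreted protein of the fibrinogen family, rose by 1.15 ± 0.22 (adjusted p 0.000195). Il15, a cytokine that sustains NK and memory CD8 T cells, named after its values were seen, was at 4.79, 4.58, 3.05, 2.51 and 2.43 CPM in control and 8.3, 9.63, 6.35, 8.98 and 7.36 CPM in mimic muscles. Its groups did not overlap, and it rose by 1.26 ± 0.32 (adjusted p 0.0199).

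Of the 43 genes that fell, 6 belonged to any of the 54 lists. The cyclin-dependent kinase inhibitor Cdkn1a (p21), which p53 and MyoD induce, was at 128, 99.3, 108, 202 and 56.1 CPM in control and 68.2, 70.3, 65.6, 115 and 23.9 CPM in mimic muscles. It was lower in the mimic leg of each pair, while the groups overlapped, with number 5 the lowest and number 4 the highest in both. It fell with a log2 fold change of -0.82 ± 0.15 (adjusted p 4.45e-05, DESeq2 with the block), against -0.83 ± 0.13 in edgeR with the block (adjusted p 0.228) and -0.79 ± 0.37 without. Cdkn1c (p57), an inhibitor of the same family, was at 114, 84.4, 95.3, 133 and 39.4 CPM in control and 69.4, 38, 75.9, 68 and 12.6 CPM in mimic muscles, with a log2 fold change of -0.95 ± 0.18 (adjusted p 0.000256). Of 26 proliferation genes none was called, and their median was -0.03.

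Tmem158, a membrane protein first described as induced by RAS, was at 31.7, 28.8, 31.5, 80.9 and 21.8 CPM in control and 11.8, 7.87, 21.1, 35.9 and 2.43 CPM in mimic muscles (log2 fold change -1.59 ± 0.28, adjusted p 2.68e-05 in DESeq2 with the block). Pair 5 had the largest fall and pair 3 the smallest. Atp1b4, a protein of the sodium pump beta family that is found at the nuclear envelope of muscle, was at 73.2, 39.7, 70.3, 93.2 and 20.8 CPM in control and 34, 14.9, 42.7, 75.9 and 5.62 CPM in mimic muscles (-1.06 ± 0.21, adjusted p 0.000492). Vgll2, a muscle cofactor of TEAD transcription factors, was at a mean of 179.5 CPM in control and 112 CPM in mimic muscles (-0.75 ± 0.16, adjusted p 0.00239). Sesn3, a stress-induced inhibitor of mTORC1 signalling, was at 90.3, 81.5, 81.3, 139 and 80.7 CPM in control and 67.6, 44.9, 63.3, 80.1 and 31.4 CPM in mimic muscles. Every mimic library lay below every control library, as for 0.388% of all genes tested, and the log2 fold change was -0.75 ± 0.17 (adjusted p 0.00439). The decoy receptor Tnfrsf23, the keratin Krt18, the integrin Itga9 and Zfp568 fell as well, with log2 fold changes of -0.78, -2.69, -0.81 and -0.70. Krt18 had ratios between 0.0185 and 0.397 over the pairs, the lowest in pair 5, and its unpaired log2 fold change of -2.20 was -0.82 without number 4 of MOV control and -3.50 without number 4 of MOV mimic.

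Genes of regenerating fibres were lower in most mimic legs. All 12 tested had a negative log2 fold change without the block (median -0.41, with the block -0.68), 4 were lower in 5 of 5 pairs, and Cdkn1a was the 1 that fell. Over all genes tested 7724 of 15220 were negative, 4.37% were lower in 5 of 5 pairs and 0.283% fell. Myh3, the embryonic myosin, was at 811, 382, 459.9, 676 and 107 CPM in control and 486, 247, 294, 605 and 4.86 CPM in mimic muscles. It was lower in each pair, and number 5 of MOV mimic was far below all others (adjusted p 0.669 in DESeq2 with the block). The pair medians of the list were -0.65, -0.41, -0.15, 0.04 and -2.52, and the unpaired median was -0.12 without number 5 of MOV mimic, -0.75 without its number 4 and -0.21 without number 1 of MOV control. Ncam1 and Chrna1, markers of denervated or growing fibres, were lower in 5 of 5 pairs without passing (adjusted p 0.305 for both). Satellite cell genes had a median of 0.04 with no call, and Fgfr4 of that list was lower in 5 of 5 pairs (log2 fold change -0.86 ± 0.27, adjusted p 0.118).

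Calcium handling and Z-disc genes were mostly negative with small medians (-0.15 over 18 genes and -0.20 over 16). Leaving out 1 library gave -0.22 to -0.08 for the former and -0.30 to -0.07 for the latter, nearest to 0 without numbers 5 and 4 of MOV control. Leaving out 1 pair gave between 0 and 3 called calcium handling genes and between 0 and 5 called Z-disc genes. Casq2, the calcium buffer of the slow and cardiac sarcoplasmic reticulum, was at 255, 156, 187, 318 and 87.1 CPM in control and 146, 82.3, 154, 287 and 24 CPM in mimic muscles and fell (-0.78 ± 0.20, adjusted p 0.0227, DESeq2 with the block). The 12 slow fibre genes, which include Casq2, went both ways without the block, with 9 positive, 3 negative and a median of 0.13. With the block their median was -0.02, and Casq2 was the only call. Sypl2, mitsugumin 29 of the triad, fell by a log2 fold change of -0.65 ± 0.18 at the threshold (adjusted p 0.0496). Itgb1bp2, melusin, a load sensor that binds integrin, was at 371, 261, 329, 512 and 467 CPM in control and 237, 149, 398, 268 and 125 CPM in mimic muscles. It was higher in the mimic leg of pair 3 and lower in the other 4 pairs (-0.80 ± 0.22, adjusted p 0.0357). Igfbp2, a binding protein of insulin-like growth factors at a mean of 3.76 CPM in control and 1.49 CPM in mimic muscles, was the only call among 24 IGF and mTOR genes (-2.37 ± 0.65, adjusted p 0.0401). Without the block its log2 fold change was -1.35, with -0.78 without number 4 of MOV control and -2.98 without number 4 of MOV mimic.

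Among the genes that the study named for this comparison, Itm2a, a membrane protein of differentiating muscle and T cells, was at 455, 459, 487, 280.2 and 293 CPM in control and 242, 224, 452, 206 and 186 CPM in mimic muscles. It was lower in each pair, least in pair 3 (log2 fold change -0.63 ± 0.15, adjusted p 0.0103, DESeq2 with the block). Ypel2, a small zinc-binding protein, was at 43.4, 44.8, 41.4, 44.8 and 44.4 CPM in control and 34.8, 26.1, 29.5, 27.5 and 28.4 CPM in mimic muscles. Its control values hardly varied and all lay above the mimic values, and the unpaired edgeR value was -0.58 ± 0.12, with p = 0.00794 in the exact permutation test. Nxn, the redox protein nucleoredoxin, fell (-0.51 ± 0.14, adjusted p 0.0436). Acsl3 and Sh3d19 were lower in 5 of 5 pairs and did not pass (-0.63 ± 0.19, adjusted p 0.0767, and -0.63 ± 0.21, adjusted p 0.132). Of 23 tested genes from a list of classic miR-1 targets none was called, the median was 0.06, and Hdac4 had the smallest p in edgeR with the block, with a log2 fold change of -0.29 ± 0.16 (adjusted p 0.616).

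Ypel2, Snord91a and Entpd4 were the 3 genes that DESeq2 called without the pairing, all lower. Snord91a, a small nucleolar RNA, had 15 to 30 counts in the MOV control libraries and 0 in all 5 MOV mimic libraries. Taking 3 counts per library as the floor, it was at least 6.63-fold lower. In sham muscle it was found in both groups, with 4 to 16 counts in sham control and 4 to 25 in sham mimic. Entpd4, a nucleotidase of the Golgi, was at 5.43, 1.68, 10.9, 10.7 and 33.8 CPM in control and 1.38, 1.51, 0.676, 3.67 and 1.88 CPM in mimic muscles, with number 5 of MOV control far above the rest. A near-identical copy of this gene is known in the mouse, so its counts are uncertain.

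Several other programmes of the muscle held no called gene. None of 82 ribosomal protein genes (median -0.04), 81 nuclear-encoded respiratory chain genes (-0.09, and -0.14 to -0.01 without 1 library), 18 collagens (-0.23, and -0.42 to -0.04), 15 endothelial genes (0.06), 17 glycolytic genes (0.09) and 21 fatty acid oxidation genes (-0.09) was called. The pairs went opposite ways for the collagens, whose summed level had ratios of 0.585, 0.859, 0.819, 1.15 and 2.48 in pairs 1 to 5. The 12 tested genes of the mitochondrial genome were all positive (median 0.38) with no call, and 0.14 without number 5 of MOV mimic. mt-Nd2, a subunit of complex I, was at 5002, 6086, 5651, 4332 and 7095 CPM in control and 6776, 7104, 6804, 6496 and 21150 CPM in mimic muscles, with number 5 of MOV mimic far above the other 9 libraries. Of the myosins of fast fibres, Myh1 (type IIx) was at a mean of 25860 CPM in control and 15020 CPM in mimic muscles and Myh2 (type IIa) at 6505 and 4499 CPM, and Myh4 (type IIb) at 12510 and 20050 CPM. None of these passed (adjusted p 0.647, 0.0746 and 0.9 in DESeq2 with the block), and numbers 2 and 5 of MOV mimic had the lowest Myh1 and the highest Myh4.

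In sham muscle the same viruses gave no call in edgeR over 20 libraries (0 of 16166 genes, and 111 at an unadjusted p under 0.05). The 84 genes that rose in MOV had a median log2 fold change of 0.11 in sham, with 52 positive and 32 negative, and the 43 that fell had a median of 0.19, with 33 positive. The difference between both surgeries was tested by the interaction. edgeR called none (0 of 16166, 0%, 426 at an unadjusted p under 0.05), and DESeq2 with a replicate block within each surgery called 5 (0.0309%). These were Gbp3, with an interaction of 1.12 on the log2 scale (adjusted p 0.0436) and a sham value of 0.35 ± 0.66, Arhgdib at 1.21 (adjusted p 0.0107), H2-Ab1 at 1.17 (adjusted p 0.0369), Selenow at 0.60 (adjusted p 0.0462) and Snord91a at -6.53 (adjusted p 0.0137), a fitted value against libraries at 0 and no measure of its size. For the other genes described a larger difference in MOV than in sham is not shown.

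**Figure D5:**
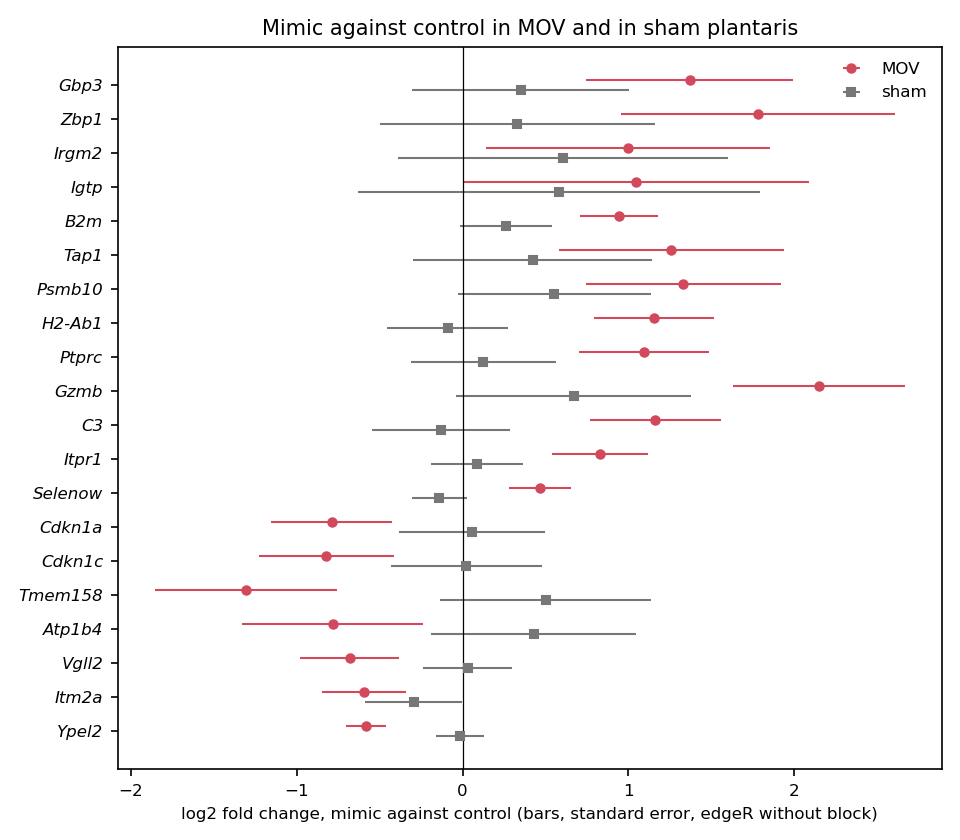
For 20 genes the log2 fold change of mimic against control (x axis) is given in MOV (circles, edgeR on 10 libraries) and in sham (squares, edgeR on 20 libraries), without the block and with bars for the standard error. MOV points lie right of 0 for the 13 upper genes and left of it for the 7 lower ones, sham points lie nearer 0 for all 20, and the bars of both surgeries overlap for several interferon genes.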

How the data were processed

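RNA was sequenced from whole plantaris after NEBNext Ultra II library preparation. The authors trimmed reads with Trim Galore 0.6.10 and cutadapt 4.4, aligned them to GRCm38 with HISAT2 2.0.5 and counted reads per gene with featureCounts 1.5.0-p3, per the submitters' processing notes, and deposited the raw gene counts in 2 tables, 1 with the control and 1 with the mimic libraries, which were used here unchanged. The tables were joined by Ensembl gene ID, and 32640 of 54532 genes had a symbol. The strand setting and the treatment of reads with several alignments are not given in the sources used here.

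Genes were tested mainly by quasi-likelihood in edgeR 4.0.16 (R 4.3.3), with TMM normalization and Benjamini-Hochberg adjustment over the 15220 genes kept by edgeR's default filter on low counts, without and with the replicate number as a block. DESeq2 1.42.0 and limma 3.58.1 (voom) were alternatives. The models were tested on simulated data, where DESeq2 with the block called more unchanged genes than edgeR and voom with the block. CPM values used TMM library sizes, and log2 CPM a prior count of 2. Exact two-sided tests used the 252 arrangements of the group labels. Each gene list is described by its counts and its median over the tested members.

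Equal numbers as legs of 1 mouse come from the study's methods, which inject both legs, and not from the labels. Over 14236 genes the deviations of equally numbered libraries correlated at 0.066 to 0.370 (3 of 5 pairs over 0.1), and those of unequally numbered ones at -0.307 to 0.209, above 2 of the 5 equal pairs at its upper end. The mean was 0.214 for equal and -0.0512 for unequal numbers. All 5 mimic libraries and 3 of the 5 control libraries correlated best with their own number. The check is incomplete, since the ranges overlap and not every library did so, and both readings are given. The study's methods give 5 mice with MOV, and the labels do not say which libraries share a mouse. No copies were found among replicates.

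The genes named were up to 12 per direction with the smallest blocked edgeR p, a mean CPM of at least 1 and 1 direction in 5 of 5 pairs, up to 3 of highest mean CPM and up to 3 of smallest p per list described with any called member, the genes the study named for this comparison, and genes called by a fit with 5 or fewer calls. Outside this rule, Ifng, Il15, Eomes, Ifi44, Ifi35, Oas1a, Dnase1l3, Th and the filtered Ncr1, Ms4a1 and Ly6g were named after their values were seen. The comparison, the lists and the tests were chosen with earlier results of these data known. Alternatives changed the tool, normalization, filter, block, samples in the fit and single libraries. Some genes called or examined are not reported here.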

Additional observations from a re-analysis of the deposited data

Results flagged for a closer look

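Among 236 groups of 5 values tested, 10 held a library whose gap to its neighbour was a larger share of the group's range, on the log2 scale, than Dixon's 95% critical value of 0.71 allows. Chance flags about 1 in 20 groups, and 10 of 236 is no more than that. Number 5 of MOV mimic was the library in 5 of the 10, which are not independent, since both summed levels contain the single genes named. It was the lowest for Myh3 (4.86 CPM, gap share 0.813), Actc1 (50.8 CPM, 0.727) and the summed regenerating fibre genes (0.727), and the highest for mt-Nd2 (0.924) and the summed genes of the mitochondrial genome (0.934). Number 2 of MOV mimic was lowest for the summed respiratory chain genes (0.719).

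In MOV control, number 4 was the highest for Tmem158 (80.9 CPM, 0.716) and Sesn3 (139 CPM, 0.794) and the lowest for the summed T cell genes (0.716), and number 5 was the lowest for Ccl7 (3.12 CPM, 0.751).

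The response to the mimic differed between MOV and sham muscle for 5 genes in DESeq2 with a replicate block within each surgery. The interactions on the log2 scale were 1.21 for Arhgdib, 1.17 for H2-Ab1, 1.12 for Gbp3, 0.60 for Selenow and -6.53 for Snord91a (fitted against libraries at 0), while edgeR called none of them.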

How the results depend on the processing

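Both edgeR counts of 0 depended on the tool. Without the block, DESeq2 called 3 genes and edgeR over all 20 libraries 1. With the replicate block, DESeq2 called 127, limma voom 67, edgeR with no filter 372, edgeR over all 20 libraries 1 and, chosen after seeing the data, DESeq2 over all 20 libraries 178. Leaving out a pair gave 0 to 2 calls in blocked edgeR, with Zbp1 and Fgl2 called without pair 3, and 25 (without pair 2) to 326 (without pair 3) in blocked DESeq2. The interaction gave 0 calls in edgeR, 1 in DESeq2 and 5 in DESeq2 with the replicate block. The cause of these differences was not tested.

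Each of the 89 genes examined kept its sign under every alternative run, and 22 of 29 list medians did. The neutrophil, slow fibre, ribosomal protein, satellite cell, endothelial, cell cycle and classic miR-1 target medians did not. Depth was lowest in number 4 of MOV mimic, at 12036360 counts, and how depth bears on genes of few counts was not tested. That equal numbers are 1 mouse is a reading that the labels do not give, and every call of DESeq2 beyond 3 genes rests on it. DESeq2 with the block also called more unchanged genes than edgeR and voom on simulated counts.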

Other observations

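2 further genes with few counts were called by DESeq2 with the block and were picked after their values were seen, so that their adjusted p is a description. Dnase1l3, a DNase that digests DNA in extracellular vesicles and is made by dendritic cells and macrophages, was at 1.51, 4.02, 0.452, 0.61 and 0.38 CPM in control and 5.5, 19.8, 1.15, 18.4 and 1.11 CPM in mimic muscles. Numbers 2 and 4 of MOV mimic stood apart from the other 8 libraries (log2 fold change 2.39 ± 0.49, adjusted p 0.00052). Th, tyrosine hydroxylase of catecholamine synthesis, was at 4.57, 0.374, 4.68, 11.1 and 1.67 CPM in control and 0.385, 0, 1.89, 0 and 0 CPM in mimic muscles, with a level of 0 in 3 mimic libraries (adjusted p 9.84e-05), and no fold is given for it.

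Genes of innate sensing and inflammasomes were positive for 15 of 18 members, with a median of 0.53 without the block and no call. Ly6a (Sca-1), a marker of fibro-adipogenic progenitors that interferon also induces, was the only gene called among 14 of that cell type, whose median was 0.17. Atrophy and FoxO genes (15, median -0.08), myostatin, TGF-beta and BMP genes (27, median -0.03) and clock genes (14, median 0.03) held no call.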
